A study of Homo sapiens with 2 samples.

Results

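The 4 genes described here encode the heavy and light chains of ferritin (Fth1 and Ftl1), a lysozyme (Lyz2) and osteopontin (Spp1). They were taken by symbol from a deposited table of 3764 genes, and were chosen because their counts differed between the libraries, so the difference itself is described and not tested. The study sequenced RNA of HepG2, a line from a human hepatocellular carcinoma grown in DMEM with fetal bovine serum. In one group CRISPR-Cas9 had been used to knock out SCRN1 (secernin 1), and the other group was labelled as wild type and titled Vector. Neither group had a further treatment, and the labels do not say whether the knockout line was 1 clone. Each group had 1 library, so the differences could not be checked against replicates, and the 95% exact intervals given throughout cover counting error only. All listed genes carry mouse identifiers and positions although the cells are labelled human.

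Ferritin is a hollow shell built from heavy and light chains that stores iron. The heavy chain oxidises iron as it enters, and the light chain favours formation of the mineral core. In iron-poor cells the iron regulatory proteins bind a hairpin in the 5′ untranslated region of both ferritin mRNAs, the iron-responsive element, and block their translation, so this control acts on protein output more than on mRNA level. Lysozyme cleaves the peptidoglycan of bacterial cell walls, and in mice Lyz2 is widely used as a marker of macrophages and other myeloid cells. Osteopontin is a secreted phosphoprotein of bone, bile duct epithelium and activated macrophages that binds integrins and CD44, and it is often raised in liver cancer.

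The iron-responsive elements of the human ferritin genes are shown because they are the regulatory sequence that the heavy and light chain genes share. They were read as DNA letters from GENCODE 29 on GRCh38, with the 6 bases of the hairpin loop in capitals. The FTH1 element lies in exon 1 at chr11:61967573-61967602 on the minus strand and the FTL element in exon 1 at chr19:48965335-48965364 on the plus strand, both in the 5′ untranslated region.
FTH1: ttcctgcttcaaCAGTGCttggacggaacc
FTL: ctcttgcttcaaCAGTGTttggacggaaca
The elements are identical at 26 of 30 positions. The core they share, CTTCAACAGTGNTTGGA, was found on the sense strand in protein-coding transcripts of 2 of 19669 genes (0.0102%), FTH1 and FTL themselves, and on the opposite strand in 0. No protein-coding transcript of LYZ or SPP1 held these letters, which says nothing further about those genes. The match describes human sequence, while the counts are assigned to mouse genes, and no source used here names their build.

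All 4 genes were lower in the knockout library, by 2.48-fold for Fth1, 3.77-fold for Ftl1, 6.33-fold for Lyz2 and 15.8-fold for Spp1. The secreted products thus showed the larger differences and the ferritin chains the smaller ones, although the ratio intervals of all 4 genes overlapped one another. Together the 4 genes had 34 counts in the SCRN1 knockout library and 144 in the vector library. Among the 1588 genes with at least 20 counts summed over both libraries, 5.04% were at least 2-fold lower in the knockout library after TMM scaling (80 genes) and 4.09% at least 2-fold higher (65 genes). Scaling by the median of ratios shifted all log2 ratios by -0.15, and the split was then 119 lower and 53 higher. With the further condition that the interval lay below equality, 3.9% of the compared genes were lower, and the 4 members met that condition too. The members passed that line because they were chosen on this contrast, and their median log2 ratio of -2.29, against 0.03 over the 1588 genes, follows from the choice.

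**Figure D1:**
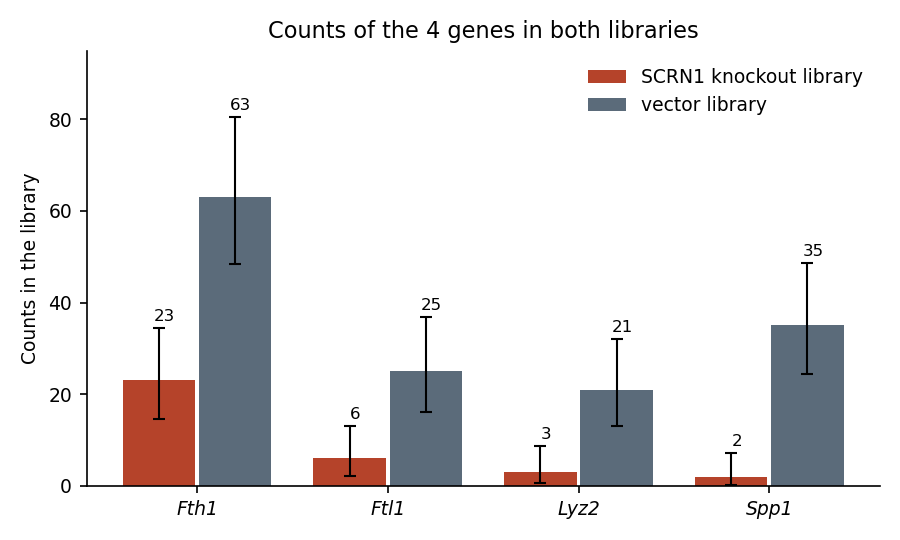
Counts (y axis) of Fth1, Ftl1, Lyz2 and Spp1 in the SCRN1 knockout library (left bar of each pair) and the vector library (right bar), 1 library each, with 95% exact Poisson intervals. Every gene has fewer counts in the knockout library, from 23 against 63 for Fth1 to 2 against 35 for Spp1. The 4 genes were chosen on this contrast, so the shared direction follows from the choice.

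The depth sets how firmly these differences can be read. The libraries held 163644 counts (knockout) and 178421 (vector) over the listed genes, with a median of 11 summed counts per gene. Taking 3 counts as the floor, a gene with no count could still have a level of 18.5 CPM (counts scaled by the library total after TMM adjustment) in the knockout library or 16.7 CPM in the vector library. The knockout values of Lyz2 and Spp1 lie at or below that floor. Scrn1 was not among the listed genes, so the knockout label could not be checked. Markers of the labelled cell type were nearly absent from the listed genes. That a gene is missing from this list of mouse genes does not show that it was not expressed. Of 20 hepatocyte and HepG2 markers, 3 were listed: Fetub (0 counts in the SCRN1 knockout library and 16 in the vector library), Cps1 (2 and 0) and Krt8 (2 and 0), while Alb, Apoa1 and Afp were not.

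Fth1 encodes the heavy chain of ferritin, which carries its ferroxidase activity. It had 23 counts (14.6 to 34.5) in the SCRN1 knockout library and 63 (48.4 to 80.6) in the vector library, which is 142 CPM and 350 CPM after scaling. The knockout over vector ratio was 0.404 (0.239 to 0.661). At the vector level, 56.9 counts would have been found in the knockout library. Fth1 was the best counted of the 4 genes and showed the smallest difference.

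Ftl1 encodes the ferritin light chain. It had 6 counts (2.20 to 13.1) in the SCRN1 knockout library and 25 (16.2 to 36.9) in the vector library, or 36.9 CPM and 139 CPM. The ratio was 0.266 (0.0891 to 0.663), where the vector level would have given 22.6 counts in the knockout library. Both ferritin chains were thus lower in the same library, with ratio intervals that overlap widely. Summed, the chains had 29 counts in the SCRN1 knockout library and 88 in the vector library, 2.74-fold lower (1.78 to 4.33). Fth1 made up 79.3% (60.3 to 92.0) of ferritin counts in the SCRN1 knockout library and 71.6% (61.0 to 80.7) in the vector library (exact binomial intervals of raw counts, not corrected for length), so a change in the balance of heavy to light chain was not detectable at this depth.

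Lyz2, the lysozyme gene of mouse myeloid cells, had 3 counts (0.619 to 8.77) in the SCRN1 knockout library and 21 (13.0 to 32.1) in the vector library. These are 18.5 CPM and 117 CPM. The ratio was 0.158 (0.0302 to 0.529). With 24 counts in all, Lyz2 was the closest of the 4 genes to the limit of 20 summed counts.

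Spp1 encodes osteopontin. It had 2 counts (0.242 to 7.22) in the SCRN1 knockout library and 35 (24.4 to 48.7) in the vector library, or 12.3 CPM and 195 CPM. The ratio was 0.0632 (0.00737 to 0.246), and the vector level would have given 31.6 counts in the knockout library. Spp1 had more counts than Ftl1 and Lyz2 in the vector library and the fewest of the 4 genes in the knockout library. Pooled, Lyz2 and Spp1 had 5 counts in the SCRN1 knockout library and 56 in the vector library, 10.1-fold lower (4.09 to 32.4). That interval overlaps the interval of the pooled ferritin chains, and whether the pairs differ in size of change was not tested.

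**Figure D2:**
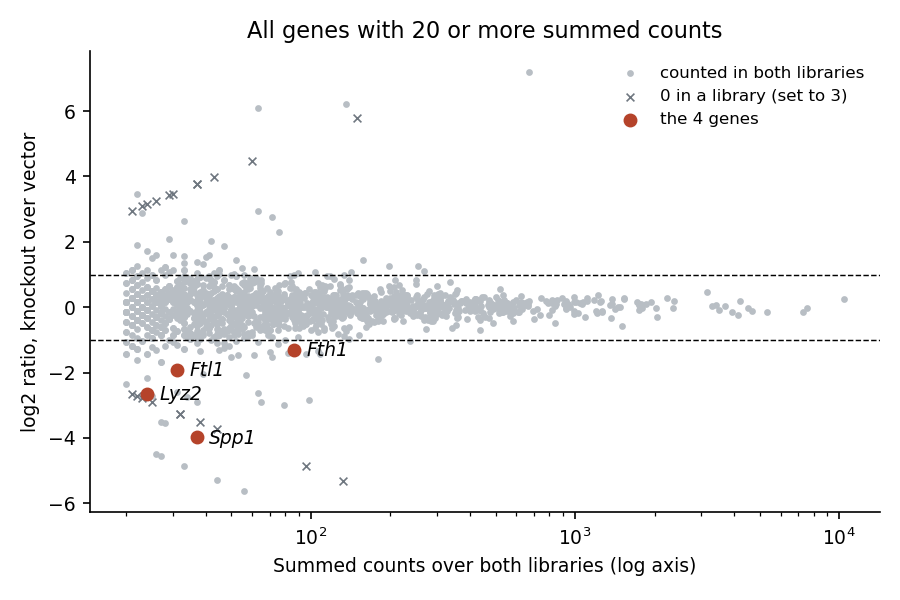
log2 ratio of the knockout over the vector library (y axis) against summed counts (x axis, log scale) for the 1588 genes with at least 20 counts, with crosses for genes at 0 in a library (set to 3 counts) and dashed lines at 2-fold. The 4 genes lie below the lower line and at the left of the plot, where the ratios of all genes spread most.

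With 24 to 86 summed counts, the members lie above the median of 11 over all listed genes. All 4 fall among the 973 of the 1588 compared genes that had 20 to 99 summed counts. Among the 973 genes with 20 to 99 summed counts, 7.71% were at least 2-fold lower in the knockout library (75 genes), a higher share than the 5.04% over all compared genes. Ranked from the lowest ratio of the 1588 genes, with zeros set to 3 counts, Spp1 was number 8, Lyz2 number 24, Ftl1 number 32 and Fth1 number 52. Nonzero counts below 3 were left unchanged, so a gene without counts in the knockout library could rank behind Spp1, counted below 3 there. The rank of Spp1 therefore depends on this rule. At 4-fold, 1.95% of the compared genes were lower in the knockout library, and Lyz2 and Spp1 were among them. The 4 genes were also moderate in level within each library. Fth1 ranked 1013 by counts in the SCRN1 knockout library and 517 in the vector library, while Spp1 ranked 2239 and 825.

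The genes nearest to each member in level and difference, by Euclidean distance on log2(CPM + 1) over the 2 libraries, came from many functions. Nearest to Fth1 were the glycine transporter gene Slc6a9 (21 counts in the SCRN1 knockout library and 61 in the vector library, distance 0.138), the splicing regulator gene Ptbp3 (24 and 72, 0.202) and the homeobox gene Pbx3 (25 and 55, 0.229). Nearest to Ftl1 were the RNA-binding protein gene Celf2 and the centriolar satellite gene Pcm1 (both 6 and 21, 0.250), followed by mt-Co1, a mitochondrially encoded cytochrome oxidase subunit gene (7 and 32, 0.415).

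Nearest to Lyz2 was Prpsap1, a gene of nucleotide precursor synthesis, with 3 counts in the SCRN1 knockout library and 22 in the vector library (distance 0.0666). The RNA-stabilising protein gene Elavl1 (3 and 17, 0.302) and the transcription factor gene Nfib (4 and 20, 0.402) followed. Spp1 had no gene as close. Its nearest were Chmp1b, an ESCRT-III membrane-remodelling gene (2 and 26, 0.426), Eif4h, a translation initiation factor gene (2 and 25, 0.482), and Prpsap1 (0.862). No iron, lysozyme or matrix gene was among these neighbours.

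The authors' deposited table compared the same libraries, with log2 fold changes of vector over knockout. In the authors' deposited table Spp1 had an adjusted p of 2.34e-05, Lyz2 of 0.0369 and Fth1 of 0.0436, and these 3 genes were marked as higher in the vector library. Ftl1, at an adjusted p of 0.0895 in the authors' deposited table, was not marked. Over all 3764 listed genes, 1.59% carried that mark in the authors' deposited table. These p-values compare 1 library with 1 and do not measure the spread between cultures.

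Levels per length are available only as the authors' deposited FPKM. The authors' deposited FPKM was 162 in the SCRN1 knockout library and 406 in the vector library for Fth1, 13.9 and 89.1 for Lyz2, 11.4 and 43.6 for Ftl1, and 2.27 and 36.4 for Spp1. On this scale Fth1 was highest in both libraries and Spp1 lowest in both. The order between genes depends on the lengths used by the authors. Those lengths, worked out from the FPKM of processed pseudogenes, were 866 bases for Fth1, 1316 for Lyz2, 3202 for Ftl1 and 5371 for Spp1. The length for Ftl1 exceeds its whole listed locus of 1941 bases, as it did by over 1% for 247 listed genes (6.56%), so the FPKM level of Ftl1 relative to the other genes is uncertain.

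In the table, which gives mouse positions without naming a build, all 4 genes were annotated as protein-coding. Fth1 (ENSMUSG00000024661) lies on chromosome 19 from 9982703 to 9985092 and Ftl1 (ENSMUSG00000050708) on chromosome 7 from 45457944 to 45459884. Lyz2 (ENSMUSG00000069516) lies on chromosome 10 from 117277331 to 117282321 and Spp1 (ENSMUSG00000029304) on chromosome 5 from 104435118 to 104441050. The 4 genes thus lie on 4 different chromosomes.

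Reads that fit several copies of a gene could shift these counts, and no source used here says how they were assigned. Lyz1, the closely related lysozyme gene of mouse Paneth cells, starts 5475 bases beyond Lyz2 and had 3 counts in each library, against the 3 and 21 of Lyz2. A pseudogene of the heavy chain, Fth-ps2, had 1 count in each library. These close copies fall below the limit of 20 summed counts. Human ferritin genes have many copies as well, with 25 numbered FTH1 pseudogenes and 16 numbered FTL pseudogenes in GENCODE 29. Ftl1 overlaps the microRNA gene Gm22133 (3 counts in the SCRN1 knockout library and 5 in the vector library), and Spp1 overlaps Gm42793 (1 and 1). The values of Fth1, Ftl1 and Lyz2 are therefore uncertain where reads were shared between copies.

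The annotation in the table joined the ferritin chains to each other more closely than to the other members. Of the gene ontology terms in the table, Fth1 and Ftl1 were the only genes with ferric iron binding, ferroxidase activity and intracellular sequestering of iron ion, among 2891 annotated genes. Lyz2 and Spp1 shared the term extracellular space, held by 104 genes. The 8 terms common to all 4 members were broad ones, the rarest being protein binding, held by 65.0% of annotated genes.

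Other genes of iron handling were few in the table. Of the 40 other genes in an iron list covering uptake, export, sensing and antioxidant defence, 8 were listed and 4 had at least 20 counts. None of these 4 was 2-fold lower or higher, and their median log2 ratio was 0.12, against 0.03 over all compared genes. Ireb2, which encodes iron regulatory protein 2 that binds the element shown above, had 32 counts in the SCRN1 knockout library and 30 in the vector library, a ratio of 1.18 (0.695 to 2.01). Fbxl5, the iron-sensing ubiquitin ligase subunit that targets iron regulatory protein 2 for degradation, had 14 and 8 counts, a ratio of 1.94 (0.758 to 5.33).

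The poly(C)-binding proteins encoded by Pcbp1 and Pcbp2 deliver iron to ferritin, besides binding RNA. Pcbp1 had 701 counts in the SCRN1 knockout library and 778 in the vector library, a ratio of 0.997 (0.899 to 1.11). Pcbp2 had 2396 and 2958 counts, a ratio of 0.896 (0.849 to 0.946). These well-counted genes lay close to equality. Tfrc, the transferrin receptor gene, had 1 count in each library, as did the antioxidant genes Slc7a11 and Txnrd1, and Gclm had 1 and 2. Over a wider set, 15 non-member genes annotated to iron ion homeostasis were listed, 8 had at least 20 counts, and 1 of these 8 was at least 2-fold lower (12.5%, against 5.04% over all compared genes, a share that rests on 1 gene). That gene, named after its values were seen, was Hif1a, the oxygen-regulated transcription factor gene, with 8 counts in the SCRN1 knockout library and 55 in the vector library.

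Relatives and partners of lysozyme and osteopontin were almost absent from the table. Of 23 genes in a list of lysozyme relatives, the bone phosphoprotein family of osteopontin, its integrin receptors, CD44 and its processing enzymes, 3 were listed and 0 had at least 20 counts. The integrin gene Itgb5 had 0 counts in the SCRN1 knockout library and 5 in the vector library, Itga5 had 2 and 0, and Lyz1 was even. The wider set of 151 other listed genes annotated to the extracellular region was set beside the 5.04% of lower genes over all compared genes. Of the 55 with at least 20 counts, 2 were at least 2-fold lower in the knockout library (3.64%) and 5 at least 2-fold higher (9.09%, against 4.09% over all compared genes), with a median log2 ratio of 0.12. The lower ones were Cfl1, an actin-severing protein gene (1 count in the SCRN1 knockout library and 25 in the vector library), and Wnt5a, which encodes a secreted Wnt ligand (9 and 24). The higher ones were Tmsb4x, the profilin gene Pfn1 (135 and 62), Rtn4rl2 (23 and 6), Thoc1 (26 and 11) and Col4a5, a basement membrane collagen chain gene (18 and 6). For the term extracellular space, 33 other genes had at least 20 counts. Of these, 2 were at least 2-fold lower (6.06%), again Cfl1 and Wnt5a, and 4 at least 2-fold higher (12.1%). The extracellular and iron homeostasis sets were taken from the table's annotation after the values were seen.

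Markers of macrophages were counted because Lyz2, and in some settings Spp1, mark these cells in mice. Of 36 macrophage markers, 12 were listed. Of these 12, 10 had more counts in the vector library, 2 in the knockout library and 0 were equal. Over all 3764 listed genes, 1857 (49.3%) had more counts in the vector library, 1121 in the knockout library and 786 were equal. Only Ctsb and Tmsb4x had at least 20 counts, and of these 2 none was at least 2-fold lower and Tmsb4x was higher. Defining markers such as Cd68, Csf1r, Adgre1 and Ptprc were not listed. Ctsd, a lysosomal protease gene, had 1 count in the SCRN1 knockout library and 16 in the vector library. The related protease gene Ctsb had 8 and 17, a ratio of 0.521 (0.195 to 1.27), and Gpnmb, a glycoprotein gene of lysosome-rich macrophages, had 2 and 9. The myeloid integrin gene Itgam and the genes Ctss, Ctsz, Laptm5 and Psap had 0 counts in the SCRN1 knockout library and 3 to 5 in the vector library. Lgals3 ran the other way, with 3 and 0. Of 72 listed non-member genes annotated to the lysosome, 25 had at least 20 counts. Of these 25, 1 was at least 2-fold lower (4%, against 5.04% over all compared genes) and 1 at least 2-fold higher (4%, against 4.09%). Their median log2 ratio was 0.09. Like the extracellular sets, this set was taken from the annotation after the values were seen.

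**Figure D3:**
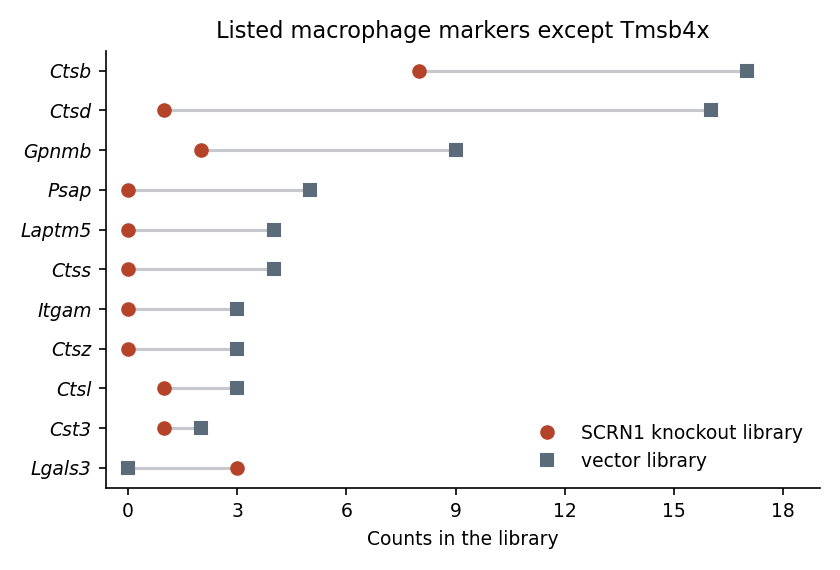
Counts (x axis) of the 11 listed macrophage markers other than Tmsb4x in the SCRN1 knockout library (circles) and the vector library (squares), 1 library each. Tmsb4x, left out after its values were seen, had 665 counts in the SCRN1 knockout library and 5 in the vector library. The vector library has more counts for 10 of the 11 genes, with Lgals3 as the exception, and all values are 17 counts or fewer. Over all listed genes, 1857 had more counts in the vector library, 1121 in the knockout library and 786 were equal.

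Pooled over all 12 listed markers the counts were higher in the knockout library, with 681 against 71 in the vector library, a ratio of 10.6 (8.30 to 13.8). Of these, 665 counts in the SCRN1 knockout library and 5 in the vector library belong to Tmsb4x. Leaving Tmsb4x out was chosen after its values were seen. Without it the 11 remaining markers had 16 counts in the SCRN1 knockout library and 66 in the vector library. The direction of the pooled counts thus depends on whether Tmsb4x is kept, and no interval is given for the remainder. Leaving out Ctsb and Ctsd as well, the other 9 had 7 and 33 counts. Of the 10 listed mitochondrially encoded genes, 7 had more counts in the vector library, as did 49.3% of all listed genes. Another 3 had equal counts (mt-Rnr1, mt-Rnr2 and mt-Cytb), and only mt-Co1 reached 20 summed counts. Pooled, the 10 genes had 21 counts in the SCRN1 knockout library and 80 in the vector library, 3.44-fold lower (2.11 to 5.86). Without mt-Co1 the other 9 had 14 and 48. Markers of fibroblasts, endothelium, lymphocytes, red cells and bile duct were represented by Col1a1 alone, with 4 and 6 counts. Genes with no count were also more common in the knockout library, at 12.7% of listed genes, than in the vector library, at 5.84%. The part of these markers, and of the more frequent zeros, in the lower counts of Fth1, Ftl1, Lyz2 and Spp1 was not tested. In bulk RNA, fewer cells of a type and less RNA per cell cannot be told apart. Other origins of these counts, which are assigned to mouse genes although the cells are labelled human, were not tested either.

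**Figure D4:**
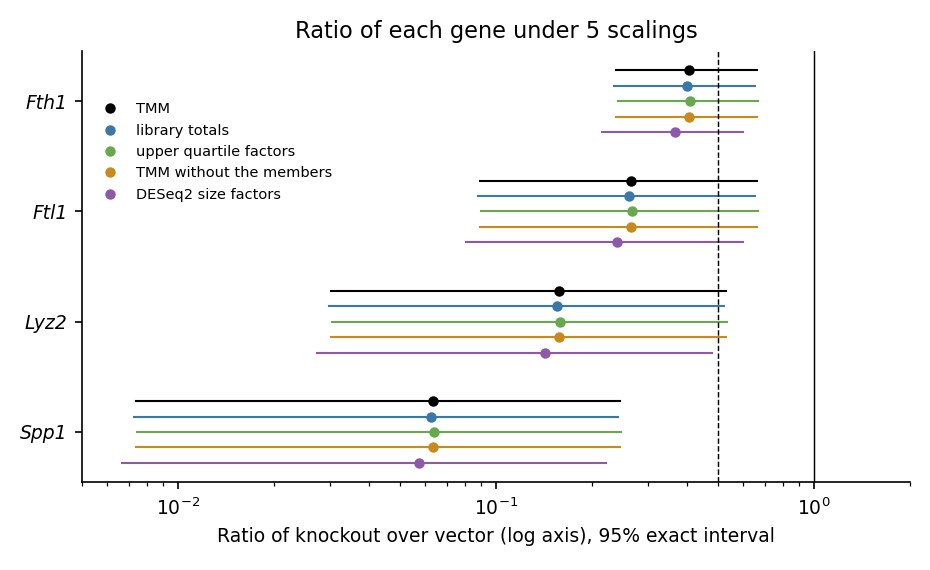
Ratio of the knockout over the vector library (x axis, log scale) with its 95% exact interval for each gene under 5 scalings of the libraries (colours), with a solid line at equality and a dashed line at 0.5. All points lie left of 0.5 and all intervals left of 1, and the scalings differ by less than the intervals are wide.

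The scaling of the libraries had little bearing on the 4 genes. With median-of-ratios scaling the ratios were 0.365 for Fth1, 0.240 for Ftl1, 0.143 for Lyz2 and 0.0571 for Spp1, and with library totals, upper quartile factors or TMM factors computed without the members they lay closer to the values above.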

How the data were processed

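RNA-seq of 1 SCRN1 knockout and 1 vector HepG2 library was compared. Among the tools in the submitters' processing notes are HISAT2 2.0.4, StringTie 1.3.0 and bcl2fastq 2.19, with GRCh38 as the build. No source used here gives the counting tool, the strand setting or the mouse build. Raw counts of each gene were deposited by the authors. The deposited FPKM values, per the file headers, are normalized for length and depth. The deposited log2 fold changes are vector over knockout, and the deposited p-values compare 1 library with 1.

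Counts were scaled with TMM (edgeR 4.0.16, R 4.3.3). Ratios carry exact conditional (Clopper-Pearson) intervals at 95%, and single counts exact Poisson intervals. Since reads of one molecule can repeat, these intervals and the floors describe counting error alone. Genes with at least 20 summed counts were compared at 2-fold, with a count of 0 set to 3 and nonzero counts below 3 left unchanged. No quasi-likelihood test could be fitted with 1 library a group. The rule was run on simulated libraries with counting error only, which says nothing about the spread between cultures or repeated reads. The members and lists were chosen with earlier results of these data known. Named genes were the 4 members, list genes with at least 20 counts, the 3 nearest genes of each member, ferritin and lysozyme copies and mitochondrial genes with at least 20 counts. Other list genes, Hif1a, Cfl1, Wnt5a, Pfn1, Rtn4rl2, Thoc1 and Col4a5 were named after their values were seen. The deposited FPKM total was taken as the median over 647 processed pseudogenes of the total that count, FPKM and span imply, and 97.7% fell within 1% of it. DESeq2 1.42.0 gave the median-of-ratios factors, which came out equal for both libraries. Other software was SciPy 1.17.1 and pandas 2.3.3 in Python 3.11.15.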

Additional observations from a re-analysis of the deposited data

How the results depend on the processing

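Over 21 alternative values of the 4 ratios (scaling, the deposited FPKM ratio and, for Fth1, the sum with Fth-ps2), 21 stayed at least 2-fold lower in the knockout library. They ran from 0.365 to 0.415 for Fth1, 0.240 to 0.268 for Ftl1, 0.143 to 0.159 for Lyz2 and 0.0571 to 0.0637 for Spp1. No copy of Ftl1 was listed, so that sum was not run. The 21 values could hardly have come out otherwise. The largest shift by a scaling was -0.15 in log2 ratio, while Fth1, with the smallest difference, lay at -1.31. The deposited FPKM ratios nearly repeat those of library totals, and Fth-ps2 adds 1 count to each library. The counts of genes past the fold moved with the filter and the fold. At 1.5-fold 197 genes were lower and 187 higher in the knockout library, with at least 10 summed counts 169 and 126, and with no count filter 294 and 289, since more genes enter. With an interval that excludes 1 they were 62 and 53, and among genes with 20 to 99 counts, a range chosen after seeing the data, 75 and 56. Of the macrophage list 2 genes had at least 20 counts and 0 of these were 2-fold lower, against 5.04% over all compared genes. At 1.5-fold 1 of the 2 was lower (197 of all 1588 genes), and with median-of-ratios scaling 1 (119 of 1588). With at least 10 counts 2 list genes were lower (169 of all genes), and with no filter 3 of the 12 listed (294 of all 3764). These list counts rest on too few genes to be read as shares. The iron list and the osteopontin and lysozyme list, with 4 and 0 genes at 20 or more counts, stayed at 0 under all alternatives run. No paired analysis was possible because there was 1 library per group, and for the same reason no library could be left out. Depth limits the knockout values of Lyz2 and Spp1, which rest on 3 and 2 counts.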
